A study of Rattus norvegicus with 11 samples.

Results

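Gluconeogenesis makes glucose from lactate, glutamine, glycerol and other precursors, and its dedicated enzymes run against the one-way steps of glycolysis. In the body it runs in the liver and in the proximal tubule of the renal cortex. Renal gluconeogenesis is known to rise in fasting, acidosis and diabetes, and insulin is known to hold it down. Measured here were the transcripts of 7 genes for these dedicated steps. Pyruvate carboxylase (Pc) and the cytosolic and mitochondrial phosphoenolpyruvate carboxykinases (Pck1 and Pck2) carry carbon from pyruvate to phosphoenolpyruvate. The fructose-1,6-bisphosphatases Fbp1, the liver and kidney form, and Fbp2, the muscle form, remove a phosphate midway. The glucose-6-phosphatase catalytic subunit (G6pc1) and the glucose-6-phosphate transporter of the endoplasmic reticulum (Slc37a4) act together to free glucose at the end. Probes were taken by gene name or RefSeq accession from the array files, which gave 8 probes of 7 genes among 30367 probes. G6pc1 had 2 probes, called here the brighter and the dimmer, and the other 6 genes had 1 each. All 8 probes lay well above background on all 11 arrays and all 8 were tested, and no probe was saturated.

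The study measured RNA of whole renal cortex from Sprague Dawley (SD) rats, 1 array per sample, with all RNA labelled with 1 dye. Control rats and rats made diabetic with streptozotocin (STZ), which kills beta cells of the pancreas and gives a model of type 1 diabetes (DM), were operated on 4 weeks later, either by sham surgery or by Roux-en-Y gastric bypass (RYGB). Bypass joins a small stomach pouch to the small intestine past its first part. Cortex was taken 4 weeks after surgery. The groups were Control+Sham (3 arrays, neither diabetes nor bypass), DM+Sham (3 arrays), Control+RYGB (3 arrays) and DM+RYGB (2 arrays). No group carried an engineered allele per the labels, and the labels give neither age nor glycaemia. Whether replicates came from separate animals is not given there, so p-values measure only the spread between these samples, which may be technical.

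Levels are log2 signal minus the 75th percentile of the same array, so that 0 is the signal that 75% of the array's probes do not exceed. In 2 pairs of arrays, DM+Sham 2 with 3 and Control+RYGB 2 with 3, the difference was smaller than the sampling noise of repeated spots. Each pair was counted as 1 sample, which left 9 samples. Each mean ± SD below is over these samples. Between 77.7% and 93.5% of probes were well above background on an array. The markers of the cortex's main cell, the proximal tubule, were all 20 above background on all 11 arrays. The array DM+RYGB 2 stood apart: the summed level of 11 heart muscle markers, on a linear scale relative to the 75th percentile, was 354.5 there, 1.02 on DM+RYGB 1 and between 0.45 and 0.87 on the other arrays. Its skeletal muscle sum was 10.4, against 0.19 to 0.56 elsewhere. The main results of the DM+RYGB group are therefore given also without this array, as are single genes whose call was lost or whose value moved much without it. In whole tissue, fewer cells of a type and less RNA per cell cannot be told apart.

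Promoters are shown for the 3 members whose RefSeq promoter entry begins at the annotated start of the gene. Among these 3 genes the phosphoenolpyruvate carboxykinase of the cytosol and G6pc1 are textbook targets of cAMP and insulin, and their transcripts behaved differently below. Each run is the 250 bases before the start site on the plus strand of GRCr8, 5′ to 3′. Capitals mark matches to 5 motifs searched on both strands. The core of the cAMP response element was searched as TGACGT. Its variant was searched as TTACGT. For forkhead factors TGTTTAC was used, and for the insulin response TGTTTTG. The TATA box was searched as TATAAA.
Pck1, chr3:182348322-182348571: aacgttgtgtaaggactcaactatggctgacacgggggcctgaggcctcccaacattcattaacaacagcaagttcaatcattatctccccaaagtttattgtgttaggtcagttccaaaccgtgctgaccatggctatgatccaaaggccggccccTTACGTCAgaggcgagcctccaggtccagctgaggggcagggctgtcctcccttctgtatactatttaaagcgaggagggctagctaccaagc
Pck2, chr15:32997603-32997852: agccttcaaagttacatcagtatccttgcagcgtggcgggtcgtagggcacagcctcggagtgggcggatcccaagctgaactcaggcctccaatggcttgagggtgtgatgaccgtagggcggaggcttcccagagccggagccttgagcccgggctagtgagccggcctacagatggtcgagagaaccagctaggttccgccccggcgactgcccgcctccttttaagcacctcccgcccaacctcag
G6pc1, chr10:86807409-86807658: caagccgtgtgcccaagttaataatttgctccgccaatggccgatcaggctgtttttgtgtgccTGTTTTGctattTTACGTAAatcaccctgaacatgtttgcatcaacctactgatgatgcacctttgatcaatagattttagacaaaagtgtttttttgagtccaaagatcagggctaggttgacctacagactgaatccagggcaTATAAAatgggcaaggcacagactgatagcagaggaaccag

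In the Pck1 run, TTACGTCA holds the plus-strand match TTACGT, 93 bases upstream of the start, and the overlapping minus-strand match of TGACGT at 91. The G6pc1 run holds TTACGTAA, in which TTACGT matches on both strands (174 and 172 bases upstream, overlapping), with TGTTTTG at 186 and TATAAA at 41. No searched motif was found in the Pck2 run, which says only that these letters are not in this window. Its GC content was 62.8%, against 52.0% for Pck1 and 43.2% for G6pc1. Of 33469 RefSeq promoters cut to the same 250 bases, 6.95% held TGACGT, 2.90% TTACGT, 3.21% TGTTTAC, 5.46% TGTTTTG and 12.9% TATAAA. A match is a run of letters, not a measured binding site.

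**Figure D1:**
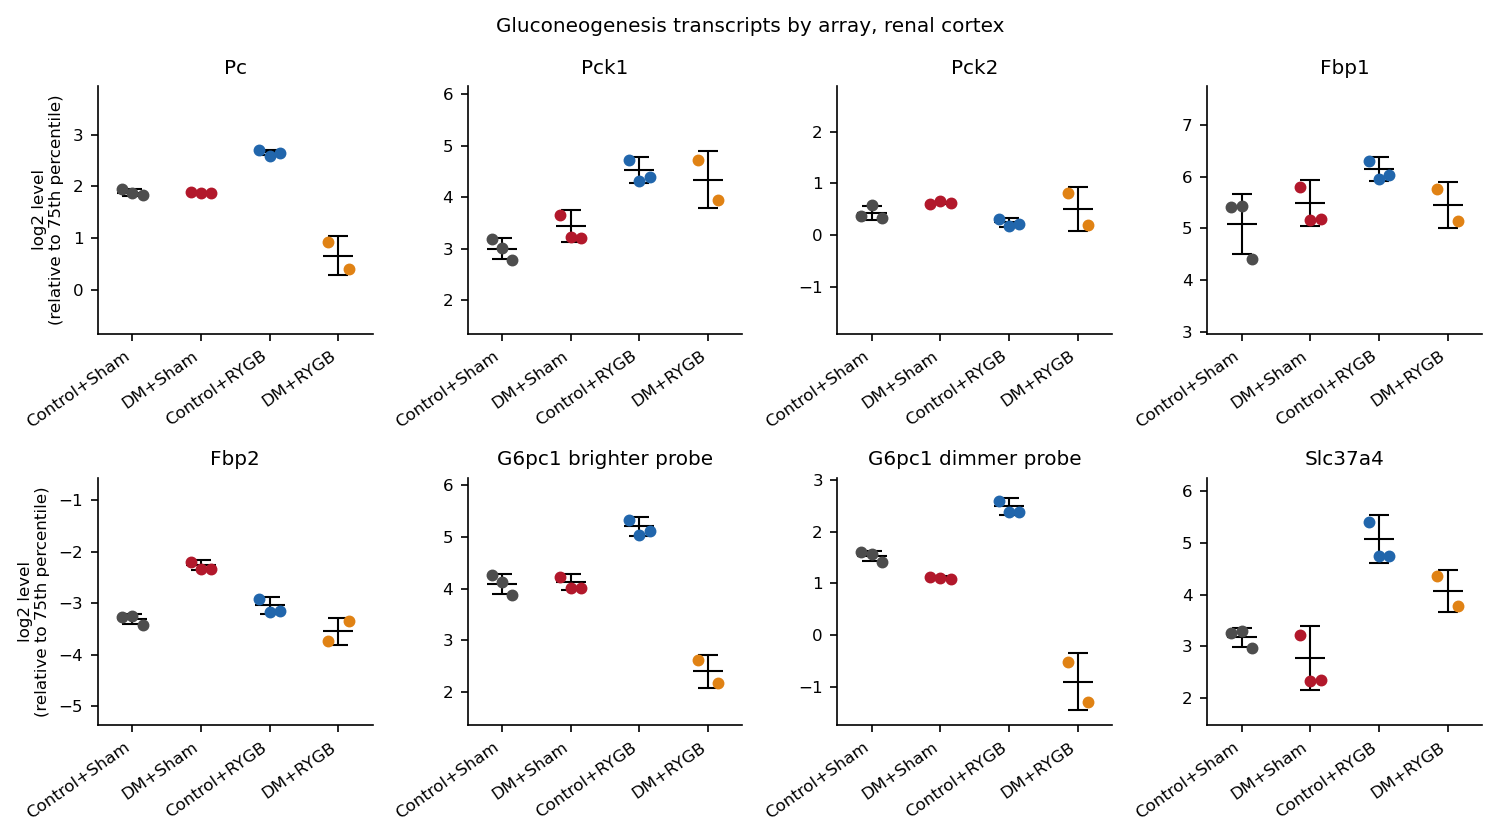
Log2 level (relative to the 75th percentile of the array, y axis; every panel spans the same number of log2 units) of each of the 8 probes by group. Points are arrays, and bars are the mean ± SD over samples; Pc and both G6pc1 probes are lowest on the 2 DM+RYGB arrays, and Fbp2 is highest on the 3 DM+Sham arrays.

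A member is said to have risen or fallen where its adjusted p was under 0.05, in 1 direction, with the arrays scaled to the 75th percentile, to the median and by quantiles. Values are those of the first scaling, from limma with Benjamini-Hochberg adjustment over 28489 probes. In sham rats with diabetes, Fbp2 rose and the other 7 probes did not pass. That is 1 of 8 in either direction, beside 13.6% of all probes tested, 7.09% higher and 6.53% lower. After bypass in diabetic rats, both G6pc1 probes, Pc and Fbp2 fell and none rose, that is 4 of 8, beside 23.6% of all probes, 12.8% higher and 10.8% lower. After bypass in control rats Pck1 and Slc37a4 rose and none fell, 2 of 8 beside 13% of all probes, 7.59% higher and 5.38% lower. Between the bypass groups, both G6pc1 probes and Pc were lower in the diabetic rats, 3 of 8 beside 19.2%, 9.4% higher and 9.8% lower. The interaction, the difference between the 2 responses to bypass, was below 0 for 4 of 8 (Fbp2, Pc and both G6pc1 probes), beside 15.9%, 7.6% higher and 8.27% lower. At the first scaling alone 1, 6, 5, 3 and 4 of the 8 passed in these 5 tests, beside 17.3%, 52.8%, 26.8%, 31.4% and 22.4%. These comparisons share groups (DM+Sham, Control+Sham and the bypass groups each serve in more than 1), so their values are given side by side and not as separate evidence.

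The median change of the 8 probes was 0.11 in sham rats with diabetes, against 0.03 over all probes. It was -0.67 after bypass in diabetic rats, against 0.55 over all probes, and 1.01 after bypass in control rats, against 0.29. With quantile scaling the members' medians were 0.0068, -1.09 and 0.49, against 0.043, -0.07 and -0.05 over all probes. Scaling moved the median of all probes: for bypass in diabetic rats it was 0.55, 0.24 and -0.07 with 75th percentile, median and quantile scaling, and for bypass in control rats 0.29, 0.16 and -0.05. Of the probes past the threshold, 79.6%, 57.8% and 37.6% were higher in the first case and 79.9%, 66.5% and 39.6% in the second. The arrays of the groups compared did not overlap for 4, 6, 8 and 6 of the 8 member probes in the order diabetes in sham rats, bypass in diabetic rats, bypass in control rats and diabetes in bypass rats. Over all probes these shares were 54.6%, 77.2%, 65% and 64.2%.

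**Figure D2:**
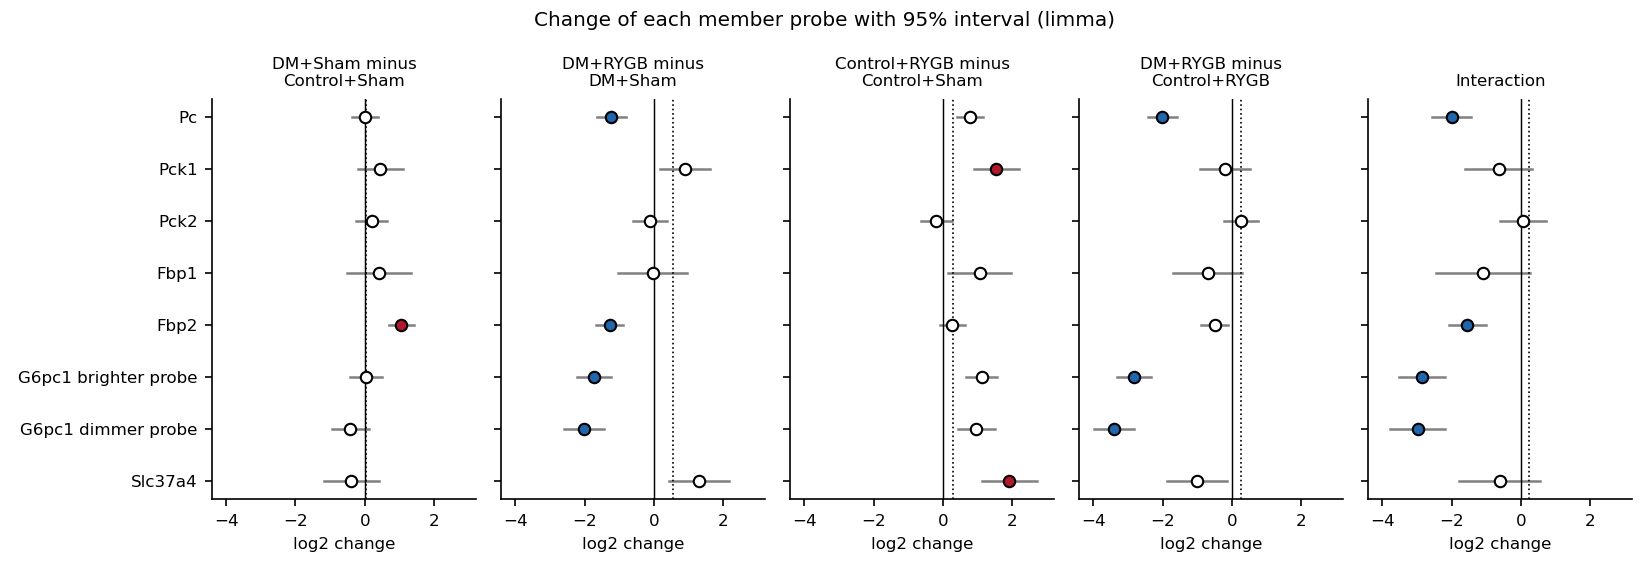
Log2 change of each member probe (x axis) in the 4 comparisons between groups and in their interaction, with 95% intervals. Filled points rose (red) or fell (blue) under all 3 scalings, and the dotted line is the median of all probes, which was 0.55 for DM+RYGB minus DM+Sham.

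Pc, the mitochondrial enzyme that turns pyruvate into oxaloacetate and so opens the pathway, fell with bypass in diabetic rats, and its level was higher, without a call at every scaling, with bypass in control rats. Its level was 1.95, 1.87 and 1.83 on the Control+Sham arrays and 1.89, 1.87 and 1.88 on the DM+Sham arrays. Control+RYGB arrays read 2.70, 2.59 and 2.65, and DM+RYGB arrays 0.92 and 0.40. The sham groups overlapped, the Control+RYGB arrays all lay above them and the DM+RYGB arrays all below.

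Group means of Pc were 1.88 ± 0.061 (SD, n = 3), 1.88 ± 0.012 (n = 2), 2.66 ± 0.055 (n = 2) and 0.66 ± 0.37 (n = 2) in the same order. With bypass in diabetic rats Pc fell by 1.22 on the log2 scale (SE 0.18, 2.33-fold lower, limma adjusted p = 0.0025), and by 0.96 between arrays of the 2 groups scanned on 1 day. With DM+RYGB 2 left out the change was -0.96 (adjusted p = 0.0016). In control rats the change with bypass was 0.78 (SE 0.16, adjusted p = 0.019), but with quantile scaling it was 0.54 (adjusted p = 0.05003), just above the limit. The diabetic rats had less Pc than controls after bypass, with a change of -2.00 (SE 0.18, adjusted p = 0.00063), with -1.74 when DM+RYGB 2 was left out, and -1.78 and -2.23 on the 2 scan days that held both groups. For diabetes in sham rats the 95% interval of the change was -0.38 to 0.38. The interaction, which asks whether bypass acted differently in diabetic and control rats, was -2.00 (SE 0.24, adjusted p = 0.0028).

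Pck1, the cytosolic carboxykinase long used as the marker of the pathway, did not follow Pc. Control+Sham arrays gave 3.19, 3.02 and 2.79, DM+Sham arrays 3.66, 3.23 and 3.22, Control+RYGB arrays 4.71, 4.32 and 4.39, and DM+RYGB arrays 4.73 and 3.95. Every bypass array was higher than every sham array, and the 2 bypass groups overlapped. Pck1 rose by 1.54 after bypass in control rats (SE 0.27, 2.90-fold, limma adjusted p = 0.012). Without Control+RYGB 1 that change was 1.36 with an adjusted p of 0.099, and without Control+RYGB 2 and 3 it was 1.72 with 0.059. With normexp background correction it was 1.58 (adjusted p = 0.0758).

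In diabetic rats the Pck1 change with bypass was 0.90 (SE 0.30, adjusted p = 0.041), which did not pass with median scaling (0.58, adjusted p = 0.14) or quantile scaling (0.38, adjusted p = 0.16). The scan day that held both groups gave 1.51. With DM+RYGB 2 left out the change was 1.29 (adjusted p = 0.013) and passed under all 3 scalings. The Pck1 interaction was -0.64 (SE 0.40, adjusted p = 0.30) with a 95% interval of -1.60 to 0.32, so the 2 responses to bypass were not shown to differ; it was -0.25 without DM+RYGB 2. With diabetes in sham rats Pck1 changed by 0.44 (SE 0.27, adjusted p = 0.31), and with diabetes after bypass by -0.20 (SE 0.30, adjusted p = 0.65). The latter was 0.19 (adjusted p = 0.618) without DM+RYGB 2.

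Pck2, the mitochondrial isoform, passed in none of the 5 tests at any of the 3 scalings. Its arrays lay at 0.38, 0.58 and 0.34 in Control+Sham, 0.61, 0.65 and 0.63 in DM+Sham, 0.30, 0.17 and 0.21 in Control+RYGB, and 0.81 and 0.20 in DM+RYGB. The 2 DM+RYGB arrays spanned nearly the whole range of the other groups. The change with bypass was -0.12 (95% interval -0.61 to 0.37) in diabetic rats and -0.19 (-0.63 to 0.26) in control rats. With only 1 DM+RYGB array kept, the change with bypass in diabetic rats was -0.43 without DM+RYGB 1 (adjusted p = 0.047) and 0.18 without DM+RYGB 2 (adjusted p = 0.28).

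Fbp1, the kidney and liver form of fructose-1,6-bisphosphatase, gave one of the brightest signals of the array, with a mean level at the 99.9th percentile of all probes. Control+Sham arrays read 5.41, 5.44 and 4.41, DM+Sham arrays 5.81, 5.17 and 5.18, Control+RYGB arrays 6.31, 5.95 and 6.03, and DM+RYGB arrays 5.76 and 5.14. Control+RYGB arrays all lay above the Control+Sham arrays, and the other 3 groups overlapped each other. The change with bypass in control rats was 1.06 (SE 0.38, limma adjusted p = 0.080), and 0.088 with quantile scaling. In diabetic rats it was -0.04 (95% interval -1.04 to 0.96), and with quantile scaling -0.83 (adjusted p = 0.017). Fbp1 is therefore not called in either direction.

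Fbp2, the muscle-type isoform, was the only member that rose with diabetes in sham rats. Its levels were -3.27, -3.24 and -3.42 in Control+Sham, -2.20, -2.33 and -2.34 in DM+Sham, -2.92, -3.17 and -3.16 in Control+RYGB, and -3.73 and -3.35 in DM+RYGB. The DM+Sham arrays stood above all 8 others, and the DM+RYGB arrays overlapped Control+Sham. Means were -3.31 ± 0.098 (SD, n = 3), -2.27 ± 0.096 (n = 2), -3.04 ± 0.17 (n = 2) and -3.54 ± 0.26 (n = 2).

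The Fbp2 rise with diabetes in sham rats was 1.05 (SE 0.15, 2.06-fold, limma adjusted p = 0.0062), and 1.04 and 1.09 on the 2 scan days that held both groups. Bypass in diabetic rats brought a fall of 1.27 on the log2 scale (SE 0.17, 2.42-fold lower, adjusted p = 0.0018). Leaving out DM+RYGB 2 gave -1.46 (adjusted p = 0.0017). In control rats the change was 0.27 (SE 0.15, adjusted p = 0.21), and the interaction was -1.55 (SE 0.22, adjusted p = 0.0053). These calls rest on the background step. With normexp correction of the raw spot signals the changes were 0.86 (adjusted p = 0.53), -0.19 (adjusted p = 0.69) and, for the interaction, -0.36 (adjusted p = 0.61). Fbp2 was the dimmest member, with signals of 121.8 to 714.9 units. On DM+RYGB 2, the array with high heart and skeletal muscle markers, Fbp2 stood at -3.35, below every DM+Sham array. The genes Fbp1 and Fbp2 are neighbours in the RefSeq annotation.

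G6pc1, the enzyme that makes free glucose, fell on both of its probes with bypass in diabetic rats. The brighter probe read 4.26, 4.14 and 3.88 in Control+Sham, 4.23, 4.01 and 4.02 in DM+Sham, 5.33, 5.04 and 5.12 in Control+RYGB, and 2.62 and 2.17 in DM+RYGB. On the dimmer probe the same arrays gave 1.61, 1.56 and 1.42, then 1.13, 1.10 and 1.08, then 2.60, 2.38 and 2.38, and last -0.52 and -1.30. With either probe, all Control+RYGB arrays were above all sham arrays and both DM+RYGB arrays were below them.

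For bypass in diabetic rats the brighter G6pc1 probe fell by 1.73 on the log2 scale (SE 0.21, 3.31-fold lower, limma adjusted p = 0.0014). The dimmer fell by 2.02 (SE 0.25, 4.05-fold lower, adjusted p = 0.0015). On the scan day with both groups the differences were -1.40 and -1.60, and without DM+RYGB 2 the changes were -1.50 and -1.63. In bypass rats, diabetes went with a lower level by -2.81 (SE 0.21, 7.02-fold, adjusted p = 0.00036) and -3.40 (SE 0.25, 10.6-fold, adjusted p = 0.00034), and by -2.59 and -3.01 without DM+RYGB 2. Scan days with both groups gave -2.72 and -2.91 for the brighter probe and -3.12 and -3.68 for the dimmer. The interactions were -2.84 (SE 0.28, adjusted p = 0.0016) and -2.98 (SE 0.33, adjusted p = 0.0023).

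In control rats, bypass went with a G6pc1 change of 1.12 (SE 0.19, adjusted p = 0.011) on the brighter probe and 0.96 (SE 0.22, adjusted p = 0.026) on the dimmer. With quantile scaling these were 0.43 (adjusted p = 0.074) and 0.76 (adjusted p = 0.052), so neither is called. Diabetes in sham rats went with 0.03 (95% interval -0.42 to 0.48) on the brighter probe and -0.42 (-0.95 to 0.11) on the dimmer. The 2 probes thus gave the same directions in the comparisons that passed, and values on both sides of 0 for diabetes in sham rats.

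Slc37a4 brings glucose-6-phosphate to G6pc1, and its transcript moved apart from that of its partner. Its levels were 3.26, 3.30 and 2.96 in Control+Sham, 3.21, 2.33 and 2.35 in DM+Sham, 5.41, 4.75 and 4.75 in Control+RYGB, and 4.36 and 3.78 in DM+RYGB. Both bypass groups lay above all sham arrays, and Control+RYGB above DM+RYGB.

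Slc37a4 rose by 1.91 after bypass in control rats (SE 0.33, 3.75-fold, limma adjusted p = 0.012), and without Control+RYGB 1 the change was 1.58 (adjusted p = 0.094). With normexp it was 1.96 (adjusted p = 0.0758). In diabetic rats its change with bypass was 1.30 (SE 0.36, adjusted p = 0.024), which was 0.98 (adjusted p = 0.058) with median and 0.88 (adjusted p = 0.037) with quantile scaling. It is therefore not called, though higher on both DM+RYGB arrays than on any DM+Sham array. Leaving out DM+RYGB 2 gave 1.59 (adjusted p = 0.029), and 2.02 on the scan day with both groups. Diabetes in bypass rats gave -1.01 (SE 0.36, adjusted p = 0.077), with -1.23 (adjusted p = 0.041) under median and -0.95 (adjusted p = 0.038) under quantile scaling. The interaction was -0.61 (SE 0.49, adjusted p = 0.41), with a 95% interval of -1.78 to 0.56, and -0.32 without DM+RYGB 2.

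**Figure D3:**
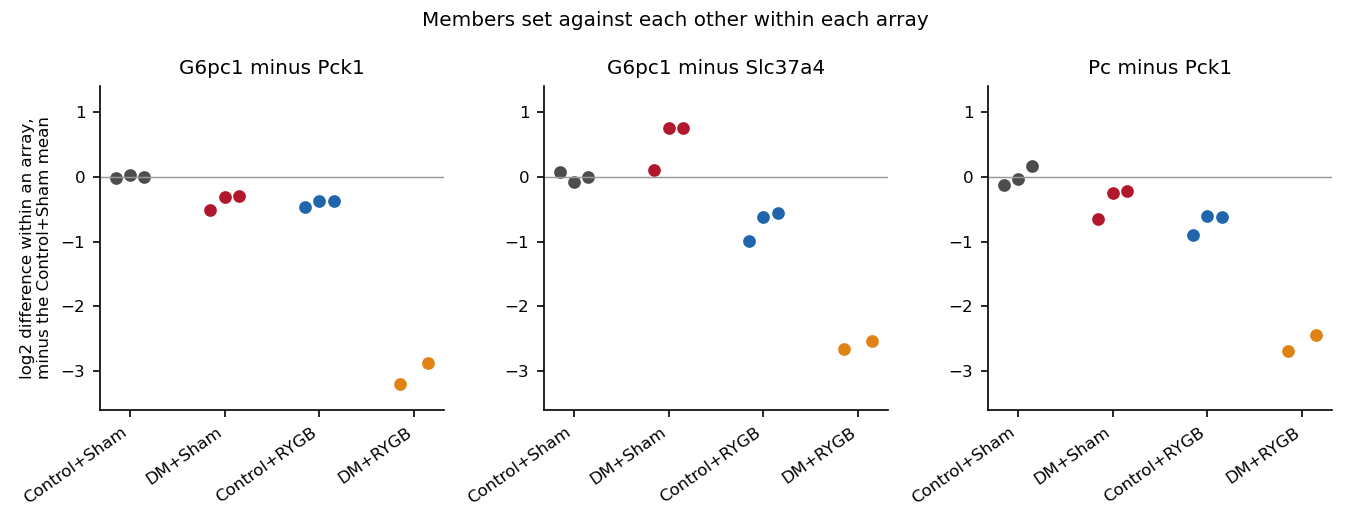
Log2 difference between 2 members on the same array, less its mean over the Control+Sham arrays (y axis), by group; each point is an array. The differences need no scaling between arrays, and for G6pc1 minus Slc37a4 the DM+RYGB arrays lie at -2.66 and -2.53.

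Differences between members within an array do not depend on 75th percentile or median scaling. Set to 0 at the mean of Control+Sham, G6pc1 (brighter probe) minus Slc37a4 ranged from 0.10 to 0.76 on the DM+Sham arrays, from -0.99 to -0.55 on the Control+RYGB arrays and stood at -2.66 and -2.53 on DM+RYGB. The same difference between Pc and Pck1 ranged from -0.65 to -0.22, from -0.90 to -0.61 and stood at -2.69 and -2.44. G6pc1 minus Pck1 ranged from -0.52 to -0.29, from -0.47 to -0.37 and stood at -3.20 and -2.87. For all 3 pairs the 2 DM+RYGB arrays lay below the 9 others. Each pair sets a member that fell with bypass in diabetic rats against one that did not, so this is not separate evidence. The offset between 2 probes has no meaning of its own, so only its change between arrays is read.

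**Figure D4:**
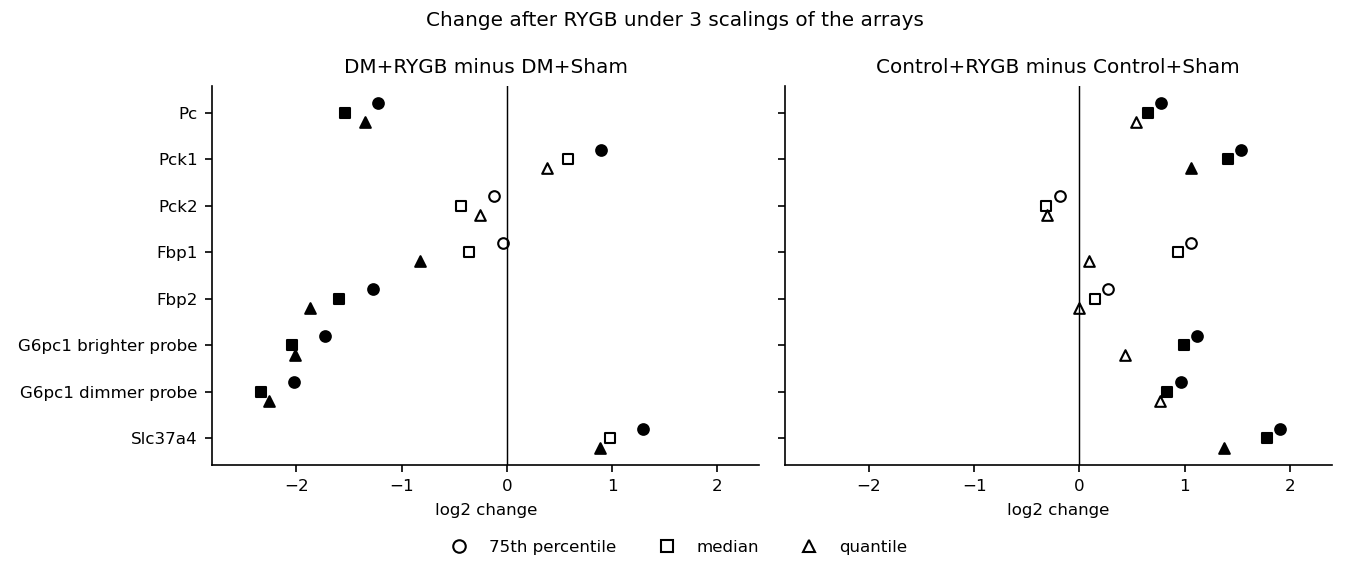
Log2 change with bypass (x axis) of each member probe in diabetic rats (left) and control rats (right) when arrays were scaled to the 75th percentile (circles), the median (squares) or by quantiles (triangles). Filled symbols passed an adjusted p of 0.05; in diabetic rats Pc, Fbp2 and both G6pc1 probes are filled at every scaling.

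The calls in control rats were lost for most probes when either Control+RYGB sample was left out, which left that arm with 1 sample. At 75th percentile scaling 5 of 8 probes passed for bypass in control rats. Without Control+RYGB 1 no probe passed the limma adjusted p, 5 having an unadjusted p under 0.05. Without Control+RYGB 2 and 3, 1 passed, and without Control+Sham 1 or 2, 3 passed. When DM+RYGB 2 was left out, whose spread enters the shared error, 5 of 8 (Pck1, Slc37a4, Pc and both G6pc1 probes) rose at all 3 scalings, beside 21.3% of all probes. The DM+RYGB comparisons kept their members in that fit: Pc, Fbp2 and both G6pc1 probes again fell with bypass in diabetic rats. Pck1 joined as a rise, giving 5 of 8 beside 27%. In that fit Fbp2 joined the probes lower with diabetes in bypass rats, giving 4 of 8 beside 24.4%, and the interaction again held 4 of 8 beside 23.6%. The dimmer G6pc1 probe, at -0.42, then also fell with diabetes in sham rats (limma adjusted p = 0.0313), giving 2 of 8 beside 23.6%. This fit was chosen after the data were seen, and it takes the lone DM+RYGB 1 to vary like the other groups. All Control+RYGB arrays carried a barcode entry in the file headers that no other array had, and DM+RYGB 2 carried another of its own. Bypass in control rats and diabetes in bypass rats therefore cannot be told apart from whatever the barcode entry marks. The interaction also uses the Control+RYGB arrays. No scan day held both control groups. With scan day as a block in the fit of all 4 groups, Pck1 gave 2.16 (adjusted p = 0.0401) and Slc37a4 2.68 (adjusted p = 0.0340). That fit counted every array as a separate sample, including the pairs counted as 1 sample elsewhere, so its p-values treat them as independent. With the brighter G6pc1 probe (adjusted p = 0.0422), 3 of 8 passed for bypass in control rats in that fit.

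Markers of cell types moved with these results. Over all probes, 12.8% rose and 10.8% fell with bypass in diabetic rats. These shares were 9.4% and 9.8% with diabetes in bypass rats, and 7.59% and 5.38% with bypass in control rats. Of 20 proximal tubule markers, 12 fell and 1 rose with bypass in diabetic rats, and 11 fell and 1 rose without DM+RYGB 2. The sodium-glucose transporter Slc5a2 changed by -1.48 and the endocytic receptor Cubn by -2.35, while Slc34a1, Lrp2, Slc3a1 and Miox did not pass, at 0.45, 0.14, 0.86 and 1.00. The summed marker level was 305.5 to 390.7 on DM+Sham, 401.0 and 234.6 on DM+RYGB, 264.5 to 382.8 on Control+Sham and 519.8 to 671.7 on Control+RYGB. With bypass in control rats no proximal tubule marker passed at all 3 scalings in limma, although 14 of 20 had an unadjusted p under 0.05; leaving out DM+RYGB 2, 5 of 20 rose and none fell. Some markers of other kidney cells moved the opposite way to most called proximal tubule markers in diabetic rats with bypass. Of 8 collecting duct markers 4 rose, and of 5 podocyte markers 3 rose, with none falling. For the thick ascending limb and distal tubule 1 of 6 rose and none fell. With diabetes in bypass rats 6 of 8, 3 of 5 and, for the thick ascending limb and distal tubule, 4 of 6 rose, and none fell. In the same comparison 14 of 20 proximal tubule markers fell and none rose. Collecting duct markers summed to 79.4 and 115.9 on DM+RYGB against 63.2 to 84.4 on DM+Sham, and podocyte markers to 23.4 and 32.9 against 11.3 to 11.9. With bypass in control rats 9 of 15 liver markers rose and 1 fell. Their summed level was 31.5 to 40.2 on Control+RYGB against 13.6 to 17.3 on Control+Sham. Albumin (Alb) changed by 2.95, and with diabetes in bypass rats by -2.72, where 11 of 15 liver markers fell. The liver also expresses the members, and the part of these markers in the results was not tested. Urothelial markers summed to 2.17 to 2.36 on Control+Sham and 0.19 to 0.56 elsewhere, which also was not tested.

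Glucose carriers work beside G6pc1 in the tubule cell. Of 8 measured genes of glucose release and uptake, 4 fell and none rose with bypass in diabetic rats. Over all probes 10.8% fell and 12.8% rose. Slc2a2, the basolateral carrier GLUT2 through which glucose leaves, had levels of 2.83, 2.69 and 2.70 on DM+Sham and -0.65 and -1.23 on DM+RYGB. Its change was -3.70 (SE 0.21, limma adjusted p = 0.000214), with an interaction of -4.66. The luminal transporter Slc5a1 rose by 0.94 with diabetes in sham rats and changed by -1.10 with bypass in diabetic rats. Slc5a10, a mannose and fructose carrier, rose by 1.47 and then changed by -2.64, and Slc5a2 was the fourth that fell. With bypass in control rats none of the 8 passed at all 3 scalings in limma, beside 13% of all probes. Of the 8, 5 had an unadjusted p under 0.05. The median change of the list was -0.75 in diabetic rats, against 0.55 over all probes, and 4 fell and none rose without DM+RYGB 2.

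Genes that bring carbon to the pathway were measured for 25 of 26 listed. All-probe shares of calls were 13.6% with diabetes in sham rats, 23.6% with bypass in diabetic rats and 13% with bypass in control rats. With diabetes in sham rats 5 rose and 2 fell. Gpt, the alanine aminotransferase that makes pyruvate, rose by 2.07 (SE 0.15, limma adjusted p = 0.000512), and Prodh, which starts proline breakdown, by 1.46 (SE 0.11, adjusted p = 0.000624). With bypass in diabetic rats 10 fell and 1 rose, the list median being -0.11 against 0.55 over all probes. The lactate transporters Slc5a12 and Slc5a8 changed by -4.13 (SE 0.25, adjusted p = 0.000256; -2.72 on a second probe) and -2.63 (SE 0.17, adjusted p = 0.000295). Gpt and Prodh changed by -1.11 and -0.98, and Got1, cytosolic aspartate aminotransferase, was the gene that rose, by 0.92, but at 0.70 was not called without DM+RYGB 2. In control rats 5 rose with bypass, Slc5a8 by 1.02 and Prodh by 0.65 among them, and 1 fell. Leaving out DM+RYGB 2, 11 fell and 1 rose in diabetic rats.

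The reversible enzymes shared with glycolysis showed few calls. Of all probes, 13.6% were called with diabetes in sham rats and 23.6% with bypass in diabetic rats. Of 12, 2 rose and none fell with diabetes in sham rats, Aldoc by 0.75 and Gapdh by 0.79, though a second Aldoc probe gave -0.63. With bypass in diabetic rats 2 rose and none fell. Pgam2, the muscle phosphoglycerate mutase and one of the 2, read between -1.29 and -1.23 on DM+Sham, 0.41 on DM+RYGB 1 and 2.68 on DM+RYGB 2, the array with high muscle markers. Its change was 2.81, and 1.67 without that array, when 2 of the 12 rose and 2 fell. Eno2 did not pass at all 3 scalings, with 1.15 at the first.

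Among 19 of 20 enzymes that run the opposite way, 2 rose and 3 fell with diabetes in sham rats. The shares of all probes called were 13.6% there, 23.6% with bypass in diabetic rats and 13% with bypass in control rats. Pfkfb2 and Pfkp rose by 0.61 and 0.47, though a second Pfkfb2 probe gave -0.18, and Pfkfb3, a maker of the fructose-2,6-bisphosphate that inhibits Fbp1, changed by -1.37 (SE 0.11, limma adjusted p = 0.00078), though its second probe gave -0.25. With bypass in diabetic rats Pfkp alone passed, at -0.63, and Hk2 gave 1.64, or 0.95 without DM+RYGB 2, and passed at all 3 scalings in neither case. When DM+RYGB 2 was left out, 2 of the 19 fell and 1 rose in that comparison. With bypass in control rats Pfkfb3 and Pfkp fell, by 1.34 and 0.49 on the log2 scale, and the second Pfkfb3 probe gave 0.093. Of 14 measured genes of malate, aspartate and citrate exchange, Mdh1 and Me1 fell with diabetes in sham rats by 0.55 and 0.69, and Slc25a10, the dicarboxylate carrier, rose by 0.90. With bypass in diabetic rats Mdh1 rose by 0.81 and Slc25a10 changed by -0.73, and without DM+RYGB 2 these were 0.66, no longer called, and -0.46. Without DM+RYGB 2 no gene of this list rose and 3 fell.

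Regulators of the pathway were measured for 43 of 47 listed genes. Of all probes, 13.6% rose or fell with diabetes in sham rats, 23.6% with bypass in diabetic rats and 13% with bypass in control rats. With diabetes in sham rats 5 rose and 3 fell, among the latter Crem, a cAMP-responsive repressor and activator, at -1.49 (SE 0.12, limma adjusted p = 0.000678), and Igfbp1, an insulin-repressed gene, at -1.12 (SE 0.15, adjusted p = 0.0043). With bypass in diabetic rats 5 rose and 7 fell. Adra1b, an adrenergic receptor, rose by 1.19. The nuclear factors Hnf4a and Cebpa, which drive genes of the liver, changed by -0.77 and -0.76, and Igfbp1 by -0.52, which without DM+RYGB 2 was -0.29 (adjusted p = 0.058). Without DM+RYGB 2, 4 of the 43 rose and 8 fell. Hnf4a, Cebpa, Got1 and the single cell type markers named above were picked as examples after their values were seen. With bypass in control rats 3 rose and 1 fell. One of the 3, Tat, was not well above background on any Control+Sham array, so no fold is given.

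**Figure D5:**
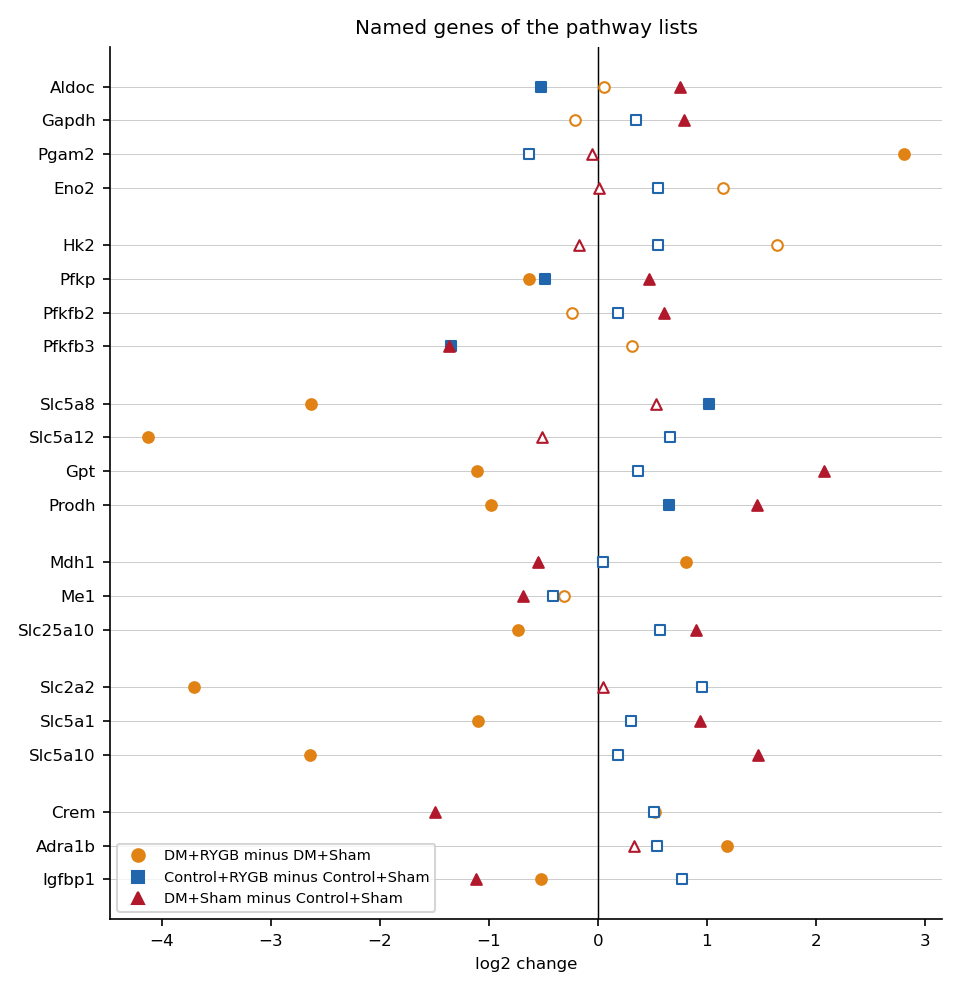
Log2 change (x axis) of the named genes of the 6 pathway lists for bypass in diabetic rats (circles), bypass in control rats (squares) and diabetes in sham rats (triangles). Filled symbols passed at all 3 scalings; Slc2a2 and Slc5a12 are lowest for bypass in diabetic rats, at -3.70 and -4.13.

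Genes whose levels followed a member most closely were ranked by the root mean square difference of centred levels over the 9 samples, among 14482 probes, as a description. For G6pc1 (brighter probe) these were Pgrmc1 (0.14 log2 units), Slc5a2 (0.14) and Cpq (0.14), where G6pc1 itself varied by 0.96 about its mean. Those nearest Pc were Apmap (0.070), Rarres2 (0.073) and L3hypdh (0.094), against 0.69 for Pc itself. Pck1 was nearest to Gpx2 (0.16), Pde4d (0.17) and Slc3a1 (0.18), with 0.70 for Pck1. Slc37a4 was followed by Sesn3 (0.23), Mtdh (0.26) and Cesl1 (0.27), with 0.91 for Slc37a4. Around Fbp2 stood Stmp1 (0.12), Ticam2 (0.15) and Myo9a (0.16), with 0.48 for Fbp2. Samples of a group share their levels, so 9 samples hold little more than 4 distinct patterns. Slc5a2 and Slc3a1 are also on the proximal tubule marker list.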

How the data were processed

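The series lists 11 rat samples of renal cortex RNA, with the scan of 1 single-colour array each. Whether the arrays averaged below were separate hybridisations is not given. Per the file headers, the authors extracted spot intensity with Agilent Feature Extraction 11.0.1.1, with background subtracted and arrays not scaled to each other. A second table the authors deposited was read as log2 values, since its columns correlated with log2 scanner values at 0.989 to 0.997. All its column medians were 7.07, as after quantile scaling, and the tool is not given in the sources used here.

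Log2 processed signal minus each array's 75th percentile was analysed, with control spots left out and spots of a probe averaged. The 28489 probes that 2 or more arrays measured well above background were fitted with limma 3.58.1 (lmFit, eBayes, 4 groups in 1 model, R 4.3.3). The threshold was an adjusted p of 0.05, and 5 residual degrees of freedom were left. Arrays that differed by less than spot noise were averaged: the spread over repeated spots was 0.021 for DM+Sham 2 and 3 and 0.053 for Control+RYGB 2 and 3, against 0.070 to 0.091 within an array. Symbols came from the RefSeq table (18005 of 30367 probes). Named genes were all members, the 2 of smallest p in each list for the first 2 comparisons, the 3 nearest by level for each called member, and the examples stated; some genes that this rule names are not reported here, though list counts include them. For a list gene with several probes the brightest was used. The fit was tested on simulated data, in which 100 of 28489 probes were changed by 1 log2 unit and 100 by 2. That share was far below the shares called in the data, so recovery in the data may differ. Of 100 probes changed by 1 log2 unit it recovered 34 for diabetes in sham rats and 27 for bypass in diabetic rats. Of 100 changed by 2 log2 units it recovered 78 and 75, with 8 and 4 false calls in all. The members and lists were chosen with earlier results of these data known. Alternatives were median and quantile scaling, normexp, the deposited table, filters, 1 probe per gene, batch and replicate blocks, weights, a 2-fold limit and leaving out each sample. The fits with scan day, shared scan time or replicate as a block counted every array as a separate sample. The shared scan time was that of Control+RYGB 2 and DM+RYGB 2, per the file headers.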

Additional observations from a re-analysis of the deposited data

Results flagged for a closer look

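For 4 probes the response to bypass differed between diabetic and control rats by the interaction test in limma. It was -2.84 log2 units for the brighter and -2.98 for the dimmer G6pc1 probe, -2.00 for Pc and -1.55 for Fbp2. Without DM+RYGB 2 these were -2.62, -2.59, -1.74 and -1.73. With scan day as a block they were -2.94, -3.06, -2.06 and -1.52, and Fbp1 passed as well, at -1.28. The scan day fit counted every array as a separate sample, unlike the main fit. Bypass in control rats, which enters the interaction, cannot be told apart from the barcode entry of the file headers. The same holds for diabetes in bypass rats. The part of cell type markers in these differences was not tested. No member had a group of 4 or more samples, so single samples were not screened for outliers.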

How the results depend on the processing

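Of 867 values of single probes recomputed under alternatives, 750 kept their direction and their side of the threshold, 46 no longer passed, 37 newly passed and 34 changed sign. In the interaction, 4 probes passed with each sample left out in turn. Precision is limited by 11 arrays and 5 residual degrees of freedom, and Fbp2 was the dimmest member.

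Probes past the threshold numbered 1, 6, 5, 3 and 4 for diabetes in sham rats, bypass in diabetic rats, bypass in control rats, diabetes in bypass rats and the interaction. With normexp they were 0 (limma, with 0 at an unadjusted p under 0.05), 3, 0 (6 unadjusted), 3 and 3. For bypass in control rats 2 passed with quantile scaling, 3 with scan day as a block and 3 with a 2-fold limit. For diabetes in bypass rats 5 passed with median scaling, 6 with quantile scaling, 6 in the deposited table, 5 with 11 separate arrays and 5 with scan day as a block. For diabetes in sham rats 2 passed with the shared scan time as a block, with array weights and with only the groups compared. Leaving out each sample gave 1 to 2, 4 to 6, 0 to 5, 3 to 5 and 4 to 4. Deviations of same-numbered arrays from their group means correlated at r from -0.38 to 0.45 (15 pairs, 5 above 0.1). In groups this small the deviations within a group mirror each other, so this cannot decide whether the numbers pair the samples. With the replicate block and 11 separate arrays together 2, 6, 6, 6 and 6 probes passed, against 1, 6, 6, 5 and 4 with 11 separate arrays alone.

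Over all probes 4918, 15038, 7648, 8933 and 6392 passed in the same order. With normexp they were 183, 5414, 73, 3318 and 1125, and with a 2-fold limit 1854, 8812, 3920, 3855 and 4176. For diabetes in sham rats, bypass in control rats and the interaction, 9570, 13153 and 10888 passed with 11 separate arrays. The replicate block added to those gave 9488, 12796 and 10362, and the shared scan time gave 10255, 12893 and 11780. Array weights gave 10801, 8087, 18027 and 5538 for the first 4 comparisons. Only the groups compared gave 7009 for bypass in diabetic rats and 2101 for diabetes in bypass rats, and scan day gave 509 for bypass in control rats. Leaving out each sample gave 1472 to 8543, 8811 to 15557, 863 to 11145, 4060 to 10938 and 2692 to 9633.

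The causes of these changes were not tested. Sign changes were all among values that passed in neither fit. For diabetes in sham rats Fbp1 gave -0.021 with quantile scaling and -0.037 in the deposited table. The brighter G6pc1 probe gave -0.0020 with median and -0.062 with quantile scaling, -0.065 in the deposited table and -0.11 with weights. It gave -0.0041 with 11 separate arrays, with the replicate block and with the shared scan time. Pc gave 0.034 with quantile scaling, 0.040 with normexp, 0.039 in the deposited table and 0.029 with scan day. For bypass in diabetic rats Pck2 gave 0.038 with scan day and 0.028 with the shared scan time. In that comparison Fbp1 gave 0.066 with 11 arrays, 0.50 with scan day and 0.26 with the shared scan time. For bypass in control rats Fbp2 gave -0.0036 with quantile scaling and -0.0034 in the deposited table. For diabetes in bypass rats Fbp2 gave 0.51 with normexp. The Pck2 interaction was -0.12 with median scaling. Leaving out each sample, the ranges were -0.076 to 0.14 (brighter G6pc1 probe), -0.83 to 0.038 (Slc37a4) and -0.027 to 0.033 (Pc) for diabetes in sham rats, and -0.43 to 0.18 (Pck2) and -0.36 to 0.28 (Fbp1) for bypass in diabetic rats. They were -0.59 to 0.19 (Pck1) and -0.047 to 0.56 (Pck2) for diabetes in bypass rats and -0.24 to 0.37 (Pck2) for the interaction. Within these ranges, Pc was 0.0082 for diabetes in sham rats without DM+Sham 2 and 3, the brighter G6pc1 probe 0.11 without Control+Sham 1, and Fbp1 -0.35 for bypass in diabetic rats without DM+RYGB 1.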
